A study of Mus musculus with 24 samples.

Results

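The transcripts described here are those of 10 zinc-handling genes in organoids of the mouse ventral prostate, which are epithelial cultures grown in Matrigel, a gel of basement membrane proteins. They were taken by gene symbol from the 54838 genes of the RNA table and comprise 3 metallothioneins (Mt1, Mt2 and Mt3), 1 zinc exporter (Slc30a1) and 6 zinc importers (Slc39a1, Slc39a4, Slc39a6, Slc39a8, Slc39a10 and Slc39a14). The T-ERG organoids carry the genotype that the labels write as Tmprss2-ERG, and the control organoids the genotype written as Tmprss2-fl/fl-ERG. Both names hold Tmprss2, a protease gene that androgens switch on in the prostate, and ERG, an ETS transcription factor, so control is not labelled as a wild type. The sources used here do not describe the allele further. Prostate tissue was taken at 4 months of age, and each dome of 30 µL Matrigel received 3000 single cells. Each genotype has 2 organoid clones, labelled as biological replicates, and each clone has 5 domes, labelled as technical replicates, with 1 RNA library per dome and 20 in all. The sources used here do not say whether the clones of a genotype derive from different mice. The p-values therefore speak of these clones and domes and not of mice. Values of a clone are given in the order of its domes 1 to 5, and for T-ERG clone 2 in the order of domes 3 to 5 followed by 2 libraries, called a and b, whose dome number is not known. The 4 whole-genome libraries were not analysed here.

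Metallothioneins are small, cysteine-rich proteins of the cytosol that bind zinc, copper and cadmium. Zinc enters the cytosol through importers of the SLC39 (ZIP) family and leaves it through exporters of the SLC30 (ZnT) family, and the zinc-sensing transcription factor MTF1 switches on metallothionein genes and Slc30a1 when zinc is abundant. The prostate epithelium is known, in humans and rats, for the large amounts of zinc that its secretory cells hold.

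The 4 mouse metallothionein genes lie side by side on chromosome 8, within 43124 bases of GRCm38.p6, the assembly of mm10. Mt4, a metallothionein of stratified squamous epithelium that is not among the 10 genes, comes first (94137204 to 94139031), followed by Mt3 (ENSMUSG00000031760, 94152607 to 94154148), Mt2 (ENSMUSG00000031762, 94172618 to 94173567) and Mt1 (ENSMUSG00000031765, 94178883 to 94180327), all on the plus strand. The 250 bases before the annotated starts of Mt2, Mt3 and Mt4 are shown because these neighbours took different orders over the clones. The sequences are RefSeq's, on GRCm38.p6, at chr8:94172368-94172617, chr8:94152357-94152606 and chr8:94136954-94137203. Capitals mark the core of the metal response element, the DNA sequence that MTF1 binds, searched as TGCACNC and TGCGCNC on both strands with overlaps allowed.
Mt2: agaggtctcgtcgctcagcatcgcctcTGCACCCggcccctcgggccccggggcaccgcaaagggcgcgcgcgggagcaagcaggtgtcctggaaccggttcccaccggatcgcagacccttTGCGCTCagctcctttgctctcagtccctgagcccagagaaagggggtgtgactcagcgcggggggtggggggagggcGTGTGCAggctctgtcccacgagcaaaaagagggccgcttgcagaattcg
Mt3: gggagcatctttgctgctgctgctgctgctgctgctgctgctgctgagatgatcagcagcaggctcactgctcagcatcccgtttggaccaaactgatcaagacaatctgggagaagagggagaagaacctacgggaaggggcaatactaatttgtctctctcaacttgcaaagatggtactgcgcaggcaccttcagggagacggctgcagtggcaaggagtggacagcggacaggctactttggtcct
Mt4: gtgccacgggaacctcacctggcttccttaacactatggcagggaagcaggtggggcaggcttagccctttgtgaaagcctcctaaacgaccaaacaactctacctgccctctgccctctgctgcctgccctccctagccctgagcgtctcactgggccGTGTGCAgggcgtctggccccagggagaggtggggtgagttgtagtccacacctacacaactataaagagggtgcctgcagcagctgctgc
The window of Mt2 held 3 matches, that of Mt4 held 1 and that of Mt3 held 0. Of 32851 mouse promoter windows of 250 bases, 21.4% held at least 1 match and 1.26% held at least 3. The windows of Mt1 and Slc30a1 held 1 match each, but 206 and 84 of their 250 bases lie inside the annotated gene. Little of the sequence before Mt1 was therefore searched, and its count cannot be set beside that of Mt2. A match is a run of letters and not a measured binding site, and binding was not measured here.

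The deposited values are log2(FPKM + 1), a measure in which the fragments of a gene are divided by its transcript length and by the size of the library. A gene was tested where it reached an FPKM of 1 in at least 5 of the 20 libraries, which kept 12899 genes and all of the 10. FPKM sums ran from 728255 to 794589 per library, and 11829 to 12184 genes had an FPKM of at least 1. Read depth is unknown, because FPKM carries no counts. Of 10 markers of prostate epithelium, 9 were tested. Hoxb13, a homeobox gene of the prostate, had 7.13 to 17.5 FPKM. Only 1 of 7 fibroblast markers (Dcn), 1 of 6 immune markers (Cd68), 0 of 4 smooth muscle markers and 0 of 4 endothelial markers were tested, and the others of these lists stayed below 1 FPKM in every library except Col3a1, a fibroblast collagen gene, which had 1.19 FPKM in dome 3 of control clone 2.

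The comparison of T-ERG with control asks what differs between the genotypes, and it rests on 2 clone means against 2. None of the 10 genes passed limma's test at an adjusted p of 0.05, and neither did any other gene, since 0 of 12899 genes (0%) were called and the smallest adjusted p was 0.281. At an unadjusted p under 0.05, 1089 genes (8.44%) were found, among them Mt1 and Mt2. When all 20 libraries were entered as single values with the clone as a random block, 1398 genes (10.8%) were called, and Mt1 and Mt2 were the only 2 of the 10. That fit assumes the same correlation within clones for all genes. A gene whose clones differ more than assumed passes it too easily, so it does not replace the test on clone means. The clone means of T-ERG were both above those of control for Mt1, Mt2 and Slc39a14 (3 of 10 genes, against 21.7% of all tested genes), and below them for Slc39a6 (1 of 10, against 23.2%). The median difference over the 10 genes was 0.21 log2 units, against 0.01 over all tested genes.

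**Figure D1:**
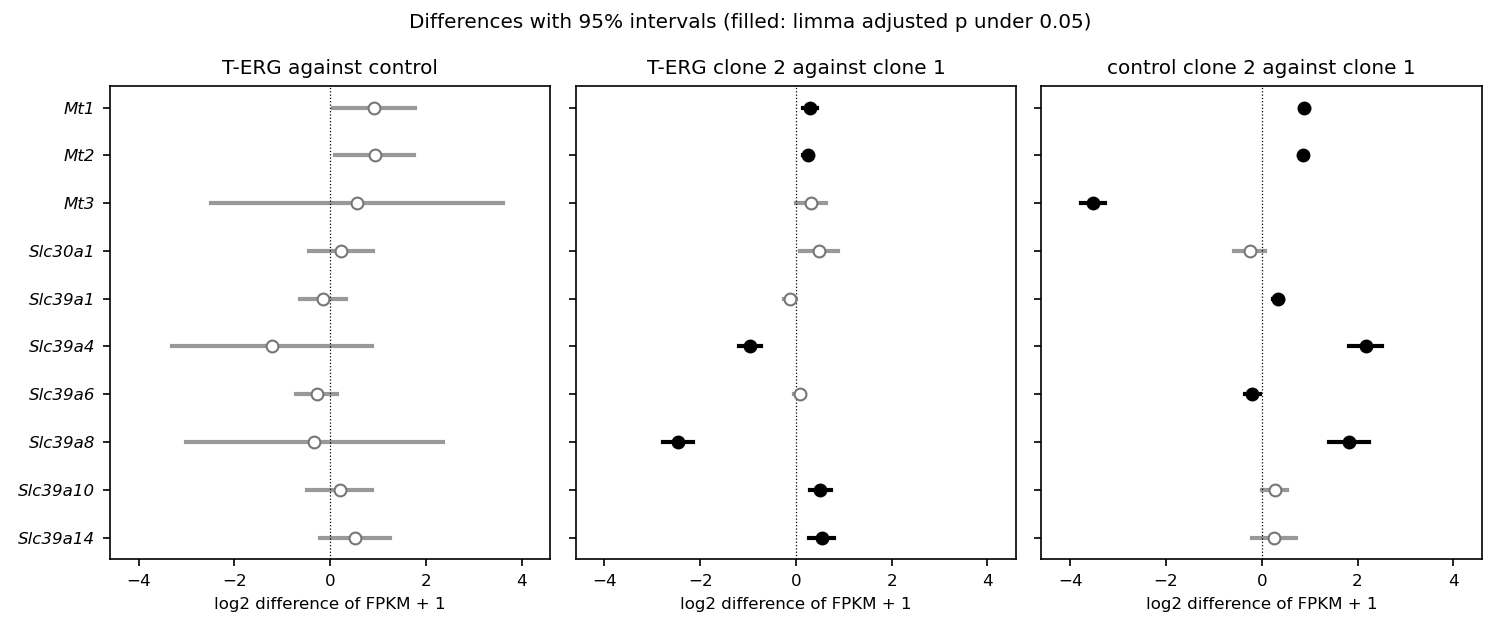
Log2 differences of FPKM + 1 (x axis) for the 10 genes (rows) with 95% intervals, for T-ERG against control, T-ERG clone 2 against clone 1 and control clone 2 against clone 1. Filled points passed limma's adjusted p of 0.05, and no point is filled in the panel of the genotypes, whereas 6 are filled between the T-ERG clones and 7 between the control clones.

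Within a genotype, the clones differed in most of these genes. Between the T-ERG clones, 6 of the 10 genes were called, against 30.5% of all tested genes. Of these, 4 were higher in clone 2 (Mt1, Mt2, Slc39a10 and Slc39a14) and 2 were lower (Slc39a4 and Slc39a8), where 17.0% and 13.5% of all tested genes were called higher and lower. Between the control clones, 7 of the 10 genes were called, against 38.3% of all tested genes. Of these, 5 were higher in clone 2 (Mt1, Mt2, Slc39a1, Slc39a4 and Slc39a8) and 2 were lower (Mt3 and Slc39a6), where 25.1% and 13.2% of all tested genes were called higher and lower. The median difference over all tested genes was 0.10 log2 units between the control clones, where 65.5% of the calls were higher in clone 2. That share was 51.1% with each library centred on its median, and the direction and call of each of the 10 genes stayed as they were. The differences below are on the log2(FPKM + 1) scale, with standard errors, and compare 5 libraries with 5 unless the genotypes are named. Clone numbers are names only, so clone 1 of T-ERG has no tie to clone 1 of control. A test of the difference between the clone differences matches clones by number, so its sign, size and call depend on the numbering.

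Mt1 and Mt2, the broadly expressed metallothioneins, were the most abundant transcripts of the 10 and had their highest levels in T-ERG. Mt2 had 6648, 6995, 7594, 7158 and 7072 FPKM in T-ERG clone 2 and 6526, 5899, 5845, 5832 and 5797 FPKM in T-ERG clone 1. The control libraries had 4538, 4626, 4634, 4583 and 4631 FPKM in clone 2 and 2628, 2663, 2518, 2534 and 2339 FPKM in clone 1. The 4 clones thus took 4 separate levels, with no overlap between neighbours, and the T-ERG libraries were all above the control libraries. Mt1 had 1942, 2059, 2011, 1731 and 2024 FPKM in T-ERG clone 2 and 1846, 1506, 1562, 1539.5 and 1493 FPKM in T-ERG clone 1. Its control levels were 1209, 1284, 1305, 1280.5 and 1239.95 FPKM in clone 2 and 668, 738, 716, 638 and 656 FPKM in clone 1. Mt1 followed the same order of clones, and only its T-ERG clones overlapped.

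The genotype means of Mt2 were 6537 FPKM in T-ERG and 3569 FPKM in control, a ratio of 1.83, and the log2 difference was 0.93 ± 0.31 (95% interval 0.11 to 1.75, limma adjusted p = 0.574, 2 clones per genotype). For Mt1 they were 1771 FPKM in T-ERG and 974 FPKM in control, a ratio of 1.82, with a log2 difference of 0.92 ± 0.33 (95% interval 0.06 to 1.78, limma adjusted p = 0.574). For these 2 of the 10 genes the lowest T-ERG library exceeded the highest control library, a separation that 2.50% of all tested genes showed. None of the 10 showed the opposite separation, which 3.70% of tested genes did. The size of the difference depended on which control clone was used. Without control clone 1 it was 0.50 for Mt2 and 0.48 for Mt1, and without control clone 2 it was 1.36 for both. In bulk RNA, more cells that express a gene cannot be told apart from more RNA per cell.

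Between clones, Mt2 was 0.25 ± 0.04 log2 units higher in T-ERG clone 2 than in clone 1 (limma adjusted p = 0.00110), and 0.86 ± 0.03 higher in control clone 2 than in clone 1 (limma adjusted p = 6.37e-09). Mt1 was 0.30 ± 0.07 higher in T-ERG clone 2 (limma adjusted p = 0.00488) and 0.89 ± 0.04 higher in control clone 2 (limma adjusted p = 3.61e-08). The clone differences of the genotypes differed by -0.61 ± 0.05 for Mt2 (limma adjusted p = 2.37e-08) and by -0.59 ± 0.08 for Mt1 (limma adjusted p = 1.05e-05). The control clone means differed 1.81-fold for Mt2 and 1.85-fold for Mt1, which is as wide as the ratio of the genotype means. The summed level of the prostate epithelium markers, of which Krt14 and Krt5 of basal cells make up most, took the same order over clones as Mt1 and Mt2. It ranged from 21280 to 21660 FPKM in T-ERG clone 2, from 16540 to 17180 FPKM in T-ERG clone 1, from 11940 to 12220 FPKM in control clone 2 and from 8534 to 9597 FPKM in control clone 1. The part of these markers in the metallothionein differences was not tested.

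**Figure D2:**
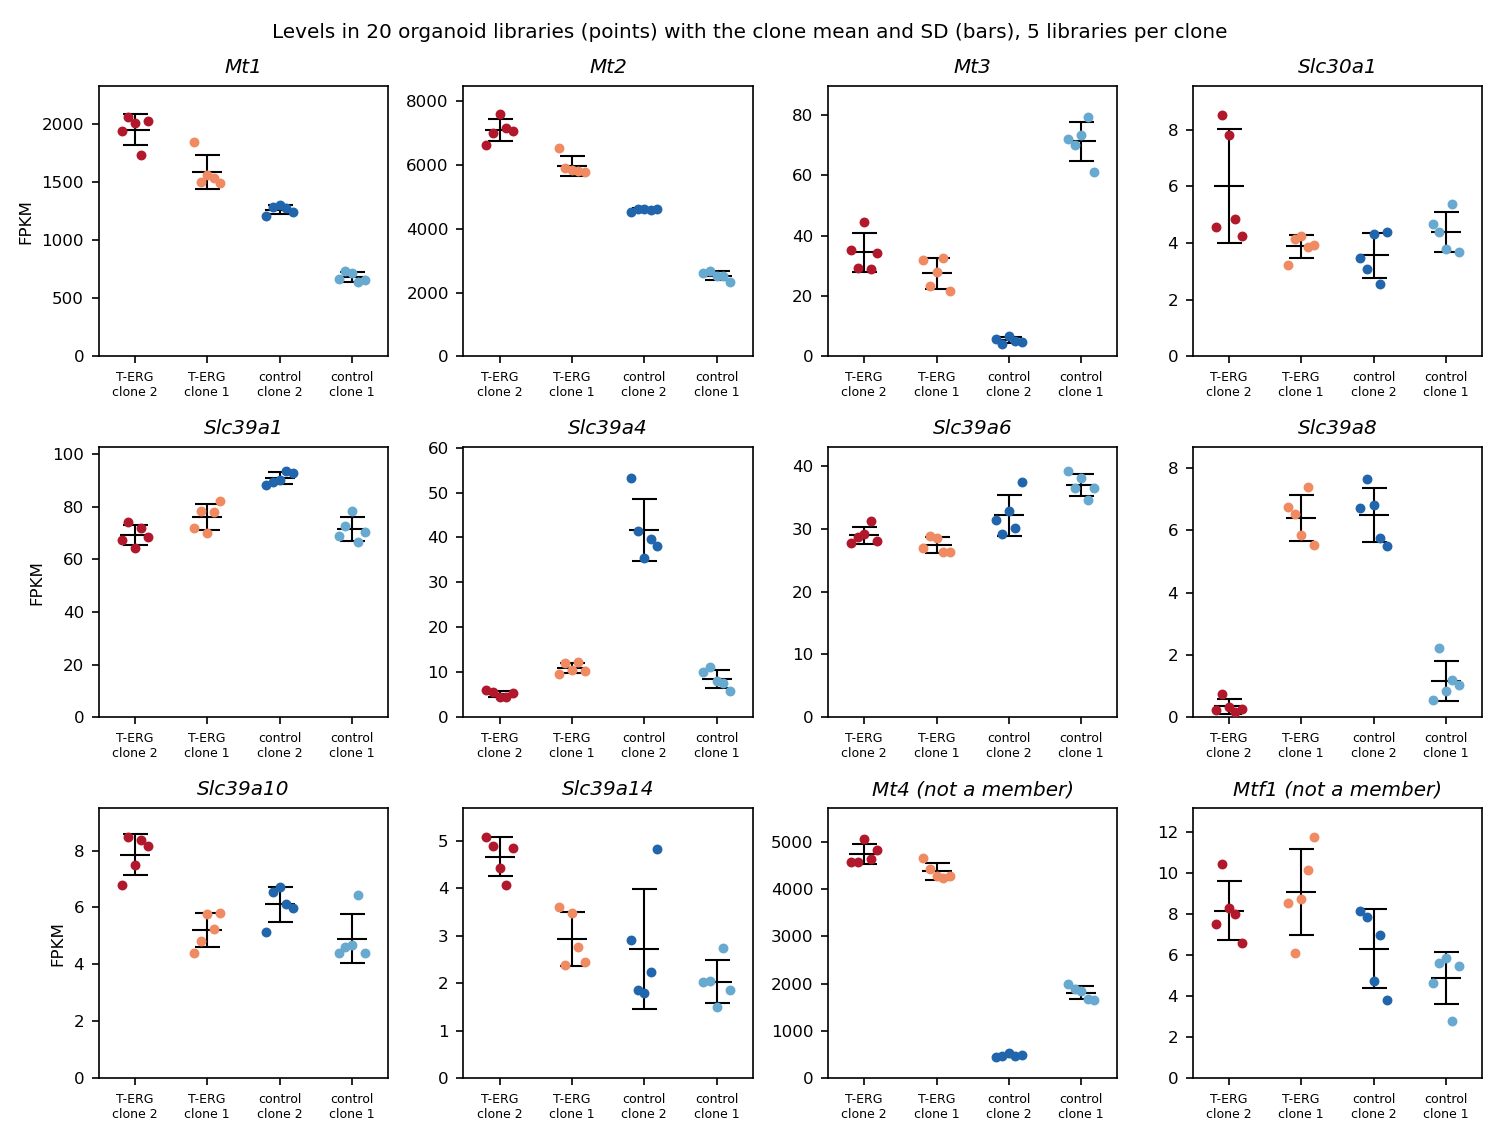
FPKM (y axis, from 0) of the 10 genes and of Mt4 and Mtf1 in each of 20 libraries (points), by clone, with the clone mean and SD (bars, 5 libraries per clone). Mt1 and Mt2 step down from T-ERG clone 2 to control clone 1, Mt3 is lowest in control clone 2, and Slc39a8 is high in T-ERG clone 1 and control clone 2 only.

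The proportion of Mt2 to Mt1 hardly moved while their levels did. The ratio of their FPKM was 3.65 ± 0.31 in T-ERG clone 2, 3.77 ± 0.15 in T-ERG clone 1, 3.64 ± 0.09 in control clone 2 and 3.72 ± 0.22 in control clone 1 (SD, n = 5 each). All 20 libraries fell between 3.40 and 4.14, and the highest clone mean was 1.04 times the lowest. The coding sequences of Mt1 and Mt2 are alike, and the sources used here do not say how reads that match both were divided, so their ratio and single levels are less certain than their sum. That sum averaged 8308 FPKM in T-ERG and 4543 FPKM in control. Ranked by FPKM among all genes of a library, Mt2 stood at place 5 in each library of T-ERG clone 2. Its place was 6 to 11 in T-ERG clone 1, 11 to 14 in control clone 2 and 36 to 38 in control clone 1. If fragments gather at transcript ends, FPKM misstates levels between genes. These places, and the shares of all FPKM given below, are therefore less certain than differences between clones.

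Mt4 did not keep in proportion. It had 4567 to 5062 FPKM in T-ERG clone 2 and 4229 to 4653 FPKM in T-ERG clone 1, against 447 to 541 FPKM in control clone 2 and 1654 to 1995 FPKM in control clone 1. Every T-ERG library exceeded every control library, and the genotype difference was 2.28 ± 0.63 log2 units (limma adjusted p = 0.574, 2 clones per genotype). Control clone 2, which had the higher Mt1 and Mt2 of the control clones, had the lower Mt4 (-1.90 ± 0.06 log2 units, limma adjusted p = 1.75e-09). The ratio of Mt4 to Mt2 was 0.668 ± 0.017 in T-ERG clone 2, 0.732 ± 0.015 in T-ERG clone 1, 0.105 ± 0.007 in control clone 2 and 0.715 ± 0.037 in control clone 1 (SD, n = 5 each). Together the 4 metallothioneins held 1.81% and 1.56% of all FPKM in T-ERG clones 2 and 1, and 0.856% and 0.685% in control clones 2 and 1.

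**Figure D3:**
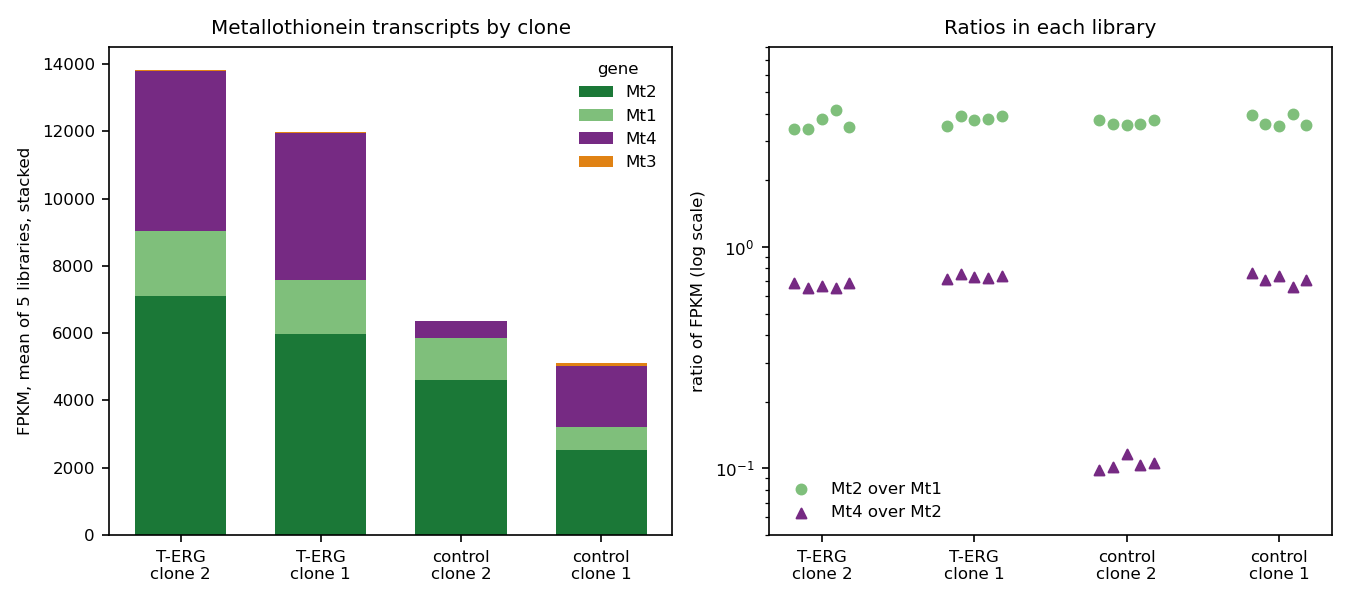
Left, mean FPKM of the 4 metallothioneins stacked by clone (5 libraries each). Right, the ratio of Mt2 to Mt1 and of Mt4 to Mt2 in each library on a log axis, where the Mt2 to Mt1 points lie between 3.40 and 4.14 in all 20 libraries and the Mt4 to Mt2 points of control clone 2, at 0.098 to 0.117, lie below those of the other clones.

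Mt3, a metallothionein best known from the brain, was the rarest of the 4 and split the control clones in the direction of Mt4. It had 35.4, 29.2, 44.6, 28.9 and 34.3 FPKM in T-ERG clone 2 and 32.1, 23.2, 28.0, 32.7 and 21.6 FPKM in T-ERG clone 1. In the control clones it had 5.90, 4.03, 6.80, 5.19 and 4.90 FPKM in clone 2 and 72.2, 70.2, 73.5, 79.2 and 61.3 FPKM in clone 1. The T-ERG clones overlapped and lay between the control clones, which stood far apart on either side. Control clone 2 was lower than clone 1 (-3.52 ± 0.12 log2 units, limma adjusted p = 1.72e-09), with means of 5.36 and 71.3 FPKM. The T-ERG clones differed by 0.32 ± 0.14 (limma adjusted p = 0.123), and the clone differences of the 2 genotypes differed from each other by 3.83 ± 0.19 (limma adjusted p = 3.81e-12). The genotype difference was 0.56 ± 1.16 log2 units (95% interval -2.50 to 3.62, limma adjusted p = 0.871), and without control clone 2 it was -1.20. Mean FPKM took the opposite order, with 31.0 in T-ERG and 38.3 in control. The range of the clone means of Mt3, 3.52 log2 units, was wider than that of 99.3% of tested genes, and for Mt4, at 3.29, that share was 99.1%.

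Mtf1, the gene of the zinc-sensing factor itself, was low. It had 6.59 to 10.4 FPKM in T-ERG clone 2 and 6.09 to 11.8 FPKM in T-ERG clone 1, against 3.84 to 8.16 FPKM in control clone 2 and 2.80 to 5.87 FPKM in control clone 1. Its libraries overlapped between the genotypes, and the genotype difference was 0.57 ± 0.20 log2 units (limma adjusted p = 0.574). It passed no test between clones.

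The exporter Slc30a1 (ZnT1, ENSMUSG00000037434, chromosome 1, 191906697 to 191913248), which carries zinc out through the plasma membrane and is a target of MTF1, was low in every clone. It had 4.56, 8.53, 7.81, 4.86 and 4.25 FPKM in T-ERG clone 2 and 3.22, 4.13, 4.23, 3.86 and 3.93 FPKM in T-ERG clone 1. Levels in control were 3.46, 3.08, 4.33, 2.54 and 4.40 FPKM in clone 2 and 4.68, 4.37, 3.77, 5.38 and 3.69 FPKM in clone 1. T-ERG clone 2 spread widest, with domes 4 and 5 above all other libraries, and lay just above T-ERG clone 1 without overlap, and the other clones overlapped one another. The T-ERG clones did not pass the test (0.48 ± 0.18 log2 units, limma adjusted p = 0.0637), nor did the control clones (-0.25 ± 0.15, limma adjusted p = 0.216) or the genotypes (0.23 ± 0.26, limma adjusted p = 0.752). The difference between the clone differences passed at 0.73 ± 0.23 (limma adjusted p = 0.0252), and without dome 4 of control clone 2 its adjusted p was 0.0507.

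Slc39a1 (ZIP1, ENSMUSG00000052310, chromosome 3, 90248190 to 90253613), an importer much studied in human prostate cells, was the most abundant of the 6 importers and among the steadiest. It had 64.2 to 74.3 FPKM in T-ERG clone 2 and 70.1 to 82.3 FPKM in T-ERG clone 1, against 88.4 to 93.7 FPKM in control clone 2 and 66.8 to 78.6 FPKM in control clone 1. Control clone 2 stood above the other clones, which overlapped one another, and it was 0.35 ± 0.05 log2 units higher than control clone 1 (limma adjusted p = 1.76e-04). The T-ERG clones differed by -0.13 ± 0.06 (limma adjusted p = 0.104) and the genotypes by -0.15 ± 0.18 (limma adjusted p = 0.765). The difference between the clone differences was -0.48 ± 0.07 (limma adjusted p = 4.17e-05). The clone means of Slc39a1 spanned 0.39 log2 units, less than the median of 0.56 over all tested genes.

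Slc39a4 (ZIP4, ENSMUSG00000063354, chromosome 15, 76612383 to 76618506), the importer of the gut whose loss causes the human zinc deficiency acrodermatitis enteropathica, was high in 1 clone. Its levels were 6.06, 5.65, 4.52, 4.45 and 5.31 FPKM in T-ERG clone 2 and 9.68, 12.2, 10.5, 12.2 and 10.3 FPKM in T-ERG clone 1. In control clones it had 53.2, 41.5, 35.4, 39.7 and 38.1 FPKM in clone 2 and 10.0, 11.1, 8.11, 7.58 and 5.85 FPKM in clone 1. Every library of control clone 2 was at least 35.4 FPKM, and no library of another clone was above 12.2 FPKM. Control clone 2 was 2.17 ± 0.16 log2 units higher than clone 1 (ratio of means 4.87, limma adjusted p = 9.35e-07), whereas T-ERG clone 2 was lower than clone 1 (-0.95 ± 0.11, ratio of means 0.473, limma adjusted p = 4.97e-05). The 2 clone differences differed from each other by -3.13 ± 0.19 (limma adjusted p = 9.67e-11). The genotype means were 8.09 FPKM in T-ERG and 25.1 FPKM in control (-1.21 ± 0.79 log2 units, limma adjusted p = 0.610), and control clone 2 carried most of the control mean.

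Slc39a8 (ZIP8, ENSMUSG00000053897, chromosome 3, 135816882 to 135888572), an importer of zinc, manganese and cadmium, was near absent in 1 T-ERG clone. It had 0.24, 0.76, 0.32, 0.18 and 0.27 FPKM in T-ERG clone 2 and 6.73, 6.53, 5.84, 7.39 and 5.51 FPKM in T-ERG clone 1. Control levels were 6.71, 7.65, 6.81, 5.76 and 5.49 FPKM in clone 2 and 0.55, 2.21, 0.84, 1.20 and 1.04 FPKM in clone 1. T-ERG clone 1 and control clone 2 shared a high level, and T-ERG clone 2 and control clone 1 a low one, with no overlap between the high and the low clones. T-ERG clone 2 was lower than clone 1 (-2.46 ± 0.14 log2 units, means 0.354 and 6.40 FPKM, limma adjusted p = 3.23e-07), and control clone 2 was 1.82 ± 0.19 higher than clone 1 (means 6.48 and 1.17 FPKM, limma adjusted p = 1.59e-05). Adding 1 shrinks differences at such levels, and with 0.1 added in its place the T-ERG clones differed by -3.95. The clone differences of the genotypes differed from each other by -4.28 ± 0.23 (limma adjusted p = 1.24e-11). The genotype difference was -0.33 ± 1.02 (limma adjusted p = 0.917), and leaving out T-ERG clone 2 made it 0.90. Slc39a4 and Slc39a8 thus had the same directions in both clone comparisons, and their clone means spanned more than those of 98.5% and 97.9% of tested genes. Dcn, the only fibroblast marker tested, was also uneven between clones, with 0.30 to 1.41 FPKM in T-ERG clone 2 and 3.52 to 4.69 FPKM in T-ERG clone 1, against 0.17 to 0.73 FPKM in control clone 2 and 2.10 to 3.17 FPKM in control clone 1. Cd68, the only immune marker tested, averaged 4.38 FPKM in T-ERG clone 2 and 3.37 FPKM in T-ERG clone 1, against 7.93 FPKM in control clone 2 and 4.86 FPKM in control clone 1. Summed over all 7 fibroblast markers, the level was 0.54 to 1.41 FPKM in T-ERG clone 2 and 4.03 to 5.26 FPKM in T-ERG clone 1, against 0.43 to 1.56 FPKM in control clone 2 and 2.30 to 3.56 FPKM in control clone 1. Of these 2 lists, Col1a2 and Lum of fibroblasts and Ptprc, Cd3e and Adgre1 of immune cells were listed at 0 in every library. The other markers of both lists were above 0 in 1 or more libraries, with at most 1.19 FPKM (Col3a1) apart from Dcn and Cd68. The part of these cell types in the importer differences was not tested.

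Slc39a6 (ZIP6, ENSMUSG00000024270, chromosome 18, 24579881 to 24603817) and Slc39a10 (ZIP10, ENSMUSG00000025986, chromosome 1, 46807544 to 46925776) are close relatives whose proteins form a complex. Slc39a6 had 27.7 to 31.2 FPKM in T-ERG clone 2 and 26.4 to 28.9 FPKM in T-ERG clone 1, against 29.1 to 37.4 FPKM in control clone 2 and 34.6 to 39.2 FPKM in control clone 1. Control clone 1 lay above all T-ERG libraries and control clone 2 overlapped them, and the genotype difference was -0.28 ± 0.16 log2 units (limma adjusted p = 0.584). Control clone 2 was lower than clone 1 (-0.20 ± 0.07, limma adjusted p = 0.0444). That call ended in 11 alternatives, among them the removal of any of 8 control libraries, that is, all but dome 5 of clone 2 and dome 4 of clone 1. Slc39a10 had 6.78 to 8.48 FPKM in T-ERG clone 2 and 4.40 to 5.81 FPKM in T-ERG clone 1, against 5.13 to 6.73 FPKM in control clone 2 and 4.39 to 6.45 FPKM in control clone 1. Only T-ERG clone 2 stood apart, 0.51 ± 0.10 log2 units higher than clone 1 (limma adjusted p = 0.00241). The control clones differed by 0.27 ± 0.12 (limma adjusted p = 0.0893), which passed without dome 4 of control clone 1 (0.36, limma adjusted p = 0.0183).

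Slc39a14 (ZIP14, ENSMUSG00000022094, chromosome 14, 70303467 to 70351452), an importer of zinc, iron and manganese, had the lowest mean of the 6 importers over all control libraries. In control clone 1 alone, Slc39a8 was lower, at a mean of 1.17 FPKM against 2.03 FPKM for Slc39a14. Slc39a14 had 5.09, 4.90, 4.43, 4.08 and 4.85 FPKM in T-ERG clone 2 and 3.60, 2.38, 3.48, 2.77 and 2.46 FPKM in T-ERG clone 1. The control libraries held 2.92, 1.85, 1.80, 2.23 and 4.83 FPKM in clone 2 and 2.03, 2.04, 1.50, 2.75 and 1.85 FPKM in clone 1. T-ERG clone 2 lay above T-ERG clone 1, and dome 5 of control clone 2 reached its level. T-ERG clone 2 was 0.53 ± 0.12 log2 units higher than clone 1 (limma adjusted p = 0.00626), while the control clones (0.25 ± 0.21, limma adjusted p = 0.382) and the genotypes (0.52 ± 0.28, limma adjusted p = 0.580) did not pass. The difference between the clone differences did not pass for Slc39a14 (0.28 ± 0.24, limma adjusted p = 0.442) or Slc39a10 (0.24 ± 0.15, limma adjusted p = 0.259).

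A difference between the clone differences passed in 8 of the 10 genes, against 26.4% of all tested genes. It passed in 3 genes with a positive sign (Mt3, Slc30a1 and Slc39a6) and in 5 with a negative sign (Mt1, Mt2, Slc39a1, Slc39a4 and Slc39a8), where 9.75% and 16.7% of all tested genes were called positive and negative. Over all genes 36.9% of these calls were positive, and with quantile normalization that share was 48.5%. The sign, size and call of this test all depend on how the clones were numbered. With the clones of 1 genotype renumbered, other genes could pass, so the count of 8 is tied to the numbering.

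The rest of both transporter families, with Mt4 and Mtf1, added 19 genes, of which 13 were tested. Slc30a5, which fills the Golgi and its vesicles with zinc, had 17.2 to 22.7 FPKM in T-ERG clone 2 and 7.64 to 11.4 FPKM in T-ERG clone 1, against 6.35 to 9.74 FPKM in control clone 2 and 14.3 to 18.6 FPKM in control clone 1. Its clones therefore paired the other way round from Slc39a8, high in T-ERG clone 2 (1.12 ± 0.11 log2 units over clone 1, limma adjusted p = 1.97e-05) and low in control clone 2 (-0.97 ± 0.11, limma adjusted p = 4.03e-05). Slc39a13, an importer of the Golgi, was 0.73 ± 0.20 higher in control clone 2 than in clone 1 (limma adjusted p = 0.0141), and Slc39a7, which releases zinc from the endoplasmic reticulum, 0.34 ± 0.05 higher (limma adjusted p = 2.28e-04). Slc39a2, a plasma membrane importer, was lower in T-ERG clone 2 than in clone 1 (-0.56 ± 0.16, limma adjusted p = 0.0225) at means of 0.846 and 1.70 FPKM. Of the 6 exporters tested, 1 was higher in T-ERG clone 2 and 1 lower in control clone 2, both of them Slc30a5. Of the 12 importers tested, 2 were higher and 3 lower in T-ERG clone 2, and 5 were higher and 1 lower in control clone 2. Over all tested genes, 17.0% were called higher and 13.5% lower in T-ERG clone 2, and 25.1% and 13.2% in control clone 2. Several of the counts of exporters and importers lie near those shares. Between the genotypes 0 of these 18 transporters passed. Slc30a8, Slc30a10, Slc39a5 and Slc39a12 were listed at 0 in every library, and Slc30a2 and Slc30a3 reached at most 0.48 and 0.13 FPKM.

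**Figure D4:**
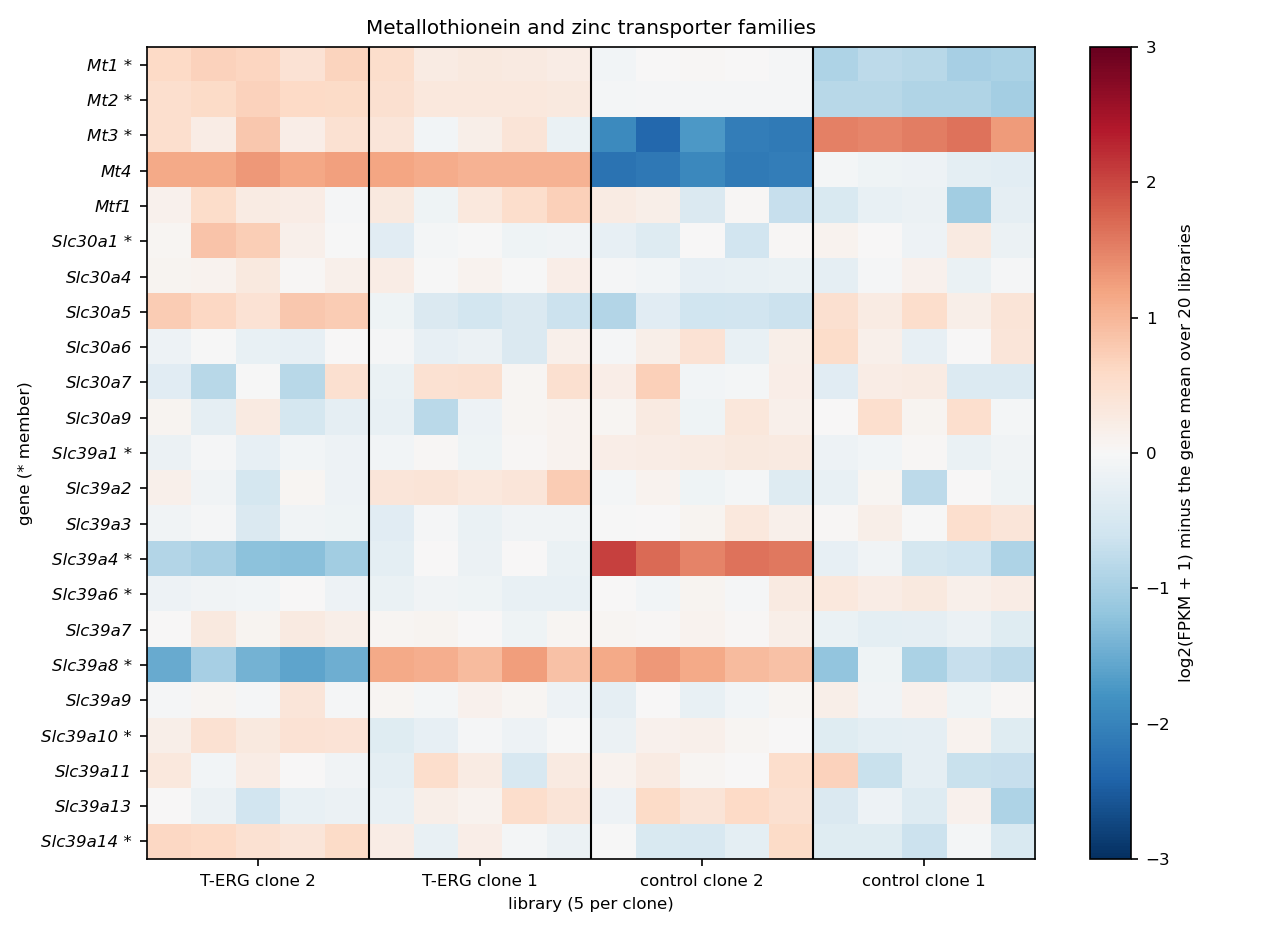
Log2(FPKM + 1) minus the mean of each gene over 20 libraries (colour, limited to 3 either way) for 23 genes of the metallothionein and zinc transporter families (rows, the 10 genes starred) in 20 libraries (columns, 5 per clone). The strongest blocks of colour are Mt3 and Mt4 in control clone 2, Slc39a4 in control clone 2, and Slc39a8, which is red in T-ERG clone 1 and control clone 2.

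Genes that share regulators or metals with this set were read from lists of copper, iron, glucocorticoid, NRF2 and cell cycle genes, and 0 genes of these lists passed between the genotypes. Glucocorticoids are known inducers of Mt1 and Mt2. The 8 genes of the glucocorticoid list are response genes and Nr3c1, the gene of the receptor. Nr3c1 differed by 0.29 ± 0.11 between the T-ERG clones (limma adjusted p = 0.0600) and by -0.27 ± 0.09 between the control clones (limma adjusted p = 0.0387). Of the 8 genes, 5 fell and 0 rose in T-ERG clone 2 against clone 1, where 13.5% of all tested genes fell and 17.0% rose. In control clone 2 against clone 1, 8 fell and 0 rose, where 13.2% of all tested genes fell and 25.1% rose. The median differences of the 8 genes were -0.54 and -0.45 log2 units, against 0.03 and 0.10 over all tested genes. Tsc22d3, a glucocorticoid-induced leucine zipper gene, fell by 0.79 between the T-ERG clones (SE 0.08, limma adjusted p = 1.96e-05) and by 1.08 between the control clones (SE 0.10, limma adjusted p = 5.35e-06). All 8 cell cycle genes were higher in clone 2 of both genotypes, with medians of 1.05 and 1.23 log2 units, Mki67 leading in T-ERG (1.21 ± 0.08, limma adjusted p = 1.09e-06) and Cdk1 in control (1.73 ± 0.23, limma adjusted p = 1.38e-04). The part of either list in the metallothionein differences was not tested.

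The shares of all tested genes called higher and lower were 17.0% and 13.5% between the T-ERG clones and 25.1% and 13.2% between the control clones, and several of the counts that follow lie near them. Of 11 iron handling genes tested, 4 rose and 1 fell between the T-ERG clones, and 3 rose and 1 fell between the control clones. Tfrc, the transferrin receptor gene, was higher in clone 2 of both T-ERG (1.13 ± 0.08, limma adjusted p = 1.57e-06) and control (0.98 ± 0.09, limma adjusted p = 5.90e-06). Slc40a1, the iron exporter, was lower in T-ERG clone 2 (-0.84 ± 0.14, limma adjusted p = 8.88e-04). Its means were 0.148 and 1.05 FPKM in T-ERG clones 2 and 1, and no library exceeded 1.24 FPKM. Of 8 copper handling genes tested, 0 rose and 2 fell between the T-ERG clones, and 3 rose and 1 fell between the control clones. Slc31a1, the copper importer, was among those that fell in T-ERG clone 2 (-0.27 ± 0.05, limma adjusted p = 0.00280). Of 8 genes of the response to NRF2, the factor of oxidative defence, 3 rose and 1 fell between the T-ERG clones and 4 rose and 2 fell between the control clones, where Nqo1, a quinone reductase, had the largest difference (-2.04 ± 0.22, limma adjusted p = 2.80e-05).

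Likeness to the leading gene of each role was measured as the root mean square distance between centred log2 profiles over the 20 libraries. The profile nearest to that of Mt2, whose own root mean square was 0.56, was that of Mt1 at 0.075, followed by Plk2, a polo-like kinase, at 0.132 and Wdr36, a factor of ribosome assembly, at 0.153. Plk2 averaged 95.5 FPKM in T-ERG clone 2, 75.9 in T-ERG clone 1, 66.8 in control clone 2 and 39.2 in control clone 1, the order of Mt2. The nearest to Slc39a1 (own value 0.17) were Spin1 at 0.076, Sdc1 at 0.077 and Ptpn9 at 0.083. The nearest to Slc30a1 (own value 0.32) were Hmgn5, Gpn3 and Tob2 at 0.207 to 0.217, which is most of its own spread.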

How the data were processed

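RNA sequencing was analysed in 20 organoid libraries. The authors deposited log2 values, which are log2(FPKM + 1), since undoing the log returned 2-decimal numbers in 100% of cells (tolerance 0.001 hundredths). The submitters' processing notes name RSEM 1.3.0, DESeq2 and build mm10. The aligner, annotation and strand setting are not stated. Per the labels' protocols, barcoded cDNA was pooled after template switching and amplified in 12 cycles. If fragments gather at transcript ends, FPKM misstates levels between genes. In 2 T-ERG columns the header was the same, and both were taken as unnumbered libraries a and b of clone 2, the only clone of that genotype with samples left. The number of columns not used was 0. No library was a copy of another (highest correlation between domes of a clone 0.970 over tested genes).

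Differences were fitted with limma 3.58.1 in R 4.3.3 (empirical Bayes with an intensity trend, two-sided, Benjamini-Hochberg over 12899 genes, threshold 0.05). The genotypes were compared on clone means and the clones on single libraries. Same-numbered domes of the 2 clones correlated at -0.007 to 0.059 in their deviations, so numbers do not pair them. Python 3.11.15 with pandas 2.3.3, numpy 2.4.6 and matplotlib 3.10.9 served for the rest. Fits were tested on simulated data. Alternatives were another pseudocount (0.1), other filters, median centring, quantile normalization, no trend, blocks, and leaving out libraries or clones.

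The 10 genes and all lists were chosen with earlier results of these data known. The text names the 10 genes, other family genes past the threshold and Mtf1. From each context list it names some, not all, of the genes with the largest differences in a test. Slc30a2, Slc30a3 and the genes listed at 0 were named after their values were seen, as were Dcn, Cd68, the markers at 0, Col3a1, Hoxb13, Krt5 and Krt14. Some markers of the lists are not reported here. Sequences and coordinates are RefSeq's for GRCm38.p6, matched by symbol for all 10 genes. Promoter windows of Slc39a4, Slc39a6 and Slc39a14 were not used here.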

Additional observations from a re-analysis of the deposited data

Results flagged for a closer look

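In 4 of the 40 groups of 5 libraries formed by the 10 genes and 4 clones, 1 library stood apart from its clone by more than Dixon's 95% critical value of 0.71, and chance alone flags about 1 group in 20. Dome 1 of T-ERG clone 1 had the highest Mt1 and Mt2 of that clone, at 1846 and 6526 FPKM. Dome 4 of T-ERG clone 2 had the highest Slc39a8 of its clone, at 0.76 FPKM, and dome 4 of control clone 1 the highest Slc39a10, at 6.45 FPKM.

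With clones matched by number, limma's test of the difference between the clone differences, in all 20 libraries, passed for 8 of the 10 genes. In log2 units, T-ERG minus control, that difference came to -0.589 for Mt1, -0.614 for Mt2, 3.832 for Mt3 and 0.727 for Slc30a1. It came to -0.478 for Slc39a1, -3.127 for Slc39a4, 0.276 for Slc39a6 and -4.284 for Slc39a8. Clone numbers are names only, so these signs carry no direction. Renumbering the clones of 1 genotype would also change the sizes and could change which genes pass.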

How the results depend on the processing

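For the 10 genes between the genotypes, 119 values under alternatives kept direction and side of the threshold, 6 changed sign and 2 passed it. Without T-ERG clone 2, Slc30a1 came to -0.013, Slc39a8 to 0.898 and Slc39a10 to -0.058. Without control clone 2, Mt3 came to -1.197, Slc39a1 to 0.023 and Slc39a8 to 0.580. Entering all 20 libraries, with the clone as random block, called 1398 genes where clone means gave 0, and Mt1 and Mt2 passed (limma adjusted p = 0.00114 and 3.61e-04). The random-block fit assumes the same correlation within clones for all genes, so genes whose clones differ more pass too easily. With a replicate block on clone number 0 genes were called. A replicate block on dome number used 3 pairs of T-ERG domes and gave 1370 calls between the T-ERG clones, against 3934 without it, and Slc39a10 (limma adjusted p = 0.188) and Slc39a14 (0.0908) no longer passed. Between the control clones it gave 4510 calls and ended that of Slc39a6 (0.0668). The dome numbers do not pair the samples.

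Between the T-ERG clones Slc30a1 passed in 3 alternatives (limma adjusted p = 0.0309 with all clones in 1 fit, 0.0366 without unnumbered library b and 0.0291 without both unnumbered libraries), and Slc39a1 with median centring (0.0340). Slc39a10 passed between the control clones with all clones in 1 fit (0.0411). For the difference between clone differences, Slc39a6 missed the threshold without both unnumbered libraries (0.0590). The Slc39a6 call between the control clones ended at adjusted p from 0.0609 to 0.10. The cause was not tested in any of these. The genotype comparison is limited by 2 clones per genotype, and the depth behind low genes such as Slc39a8 is unknown.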
